A study of Mus musculus with 466 samples.

Results

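Collagen chains were followed across 8 sampling days of caloric restriction in 4 fat depots and the liver of obese mice. Their members were chosen by name, as all genes of the probe-to-gene table whose symbol has the form Col, number, a, number. That gave 39 genes of 16643, of which 37 carried such a symbol in the table and 2, Col26a1 and Col6a4, were reached through an older name. The 39 genes had 70 probe sets, and 22 genes had more than 1. In each tissue the probe set with the highest mean there stood for its gene. Of 44 genes of this name form in the RefSeq table, Col10a1, Col20a1, Col28a1, Col6a5 and Col6a6 were not on the probe-to-gene table and were not analysed here.

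The mice were male C57BL/6J, obese before restriction began, and were sampled at day 1, 3, 7, 14, 21, 42 or 60 of caloric restriction, or at day 0. Each mouse gave 1 Affymetrix array per tissue, made from biotin-labelled total RNA, and 392 arrays from 80 mice were used here. A tissue held 5 mice at day 1, 11 at day 3, 11 or 12 at day 7, 9 or 10 at day 14, 11 or 12 at day 21, 10 to 12 at day 42, 6 at day 60, and 11 or 12 at day 0. The labels give neither the age of the mice, nor the degree of restriction, nor the diet that made them obese, and no mice left unrestricted were sampled after day 0. Restriction and the passing of time therefore cannot be told apart. Animal IDs open with J or N, and the labels do not explain the letters. Day 1 held J mice alone, day 60 N mice alone, and 1 mouse at day 3 had no letter and a term of its own, so that day 3 rested on 10 mice.

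Collagens are proteins of the extracellular matrix built from chains that wind into a triple helix. Types I, III and V form the fibrils that give connective tissue its strength, and type IV forms the sheet-like network of basement membranes, which wrap every fat cell and line blood vessels. Type VI forms beaded filaments beside basement membranes and is a prominent component of the matrix around fat cells. Other chains sit on the surface of fibrils, anchor epithelia or cross the cell membrane. In fat, matrix is laid down as the depot expands, mainly by stromal cells and also by the fat cells themselves. In healthy liver collagen is scarce and lies around vessels and in the space beneath the sinusoids.

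The promoters of 7 chains whose values are described below are shown beside one another. At day 42 Col1a2 was called lower in 3 depots, and Col27a1 was called higher in 1 depot and in liver. The others were called lower in all 4 depots. The sequences come from RefSeq on assembly GRCm38.p6, and 30 of the 39 chains had an entry. Each window holds 300 bases, most of them before the start site, written 5′ to 3′ on the strand of the gene. Capitals mark every match, on either strand, to 3 short motifs. The first is the CCAAT box, spelled by its name. The GC box was searched as GGGCGG, and the TATA box was searched as TATAAA. Only exact letters were counted. Col4a1 lies at chr8:11312777-11313076, minus strand, and Col4a2 at chr8:11312555-11312854, plus strand. These genes stand head to head on chromosome 8, their start sites are 21 bases apart, and the windows share 78 bases. Col1a2 lies at chr6:4505368-4505667, plus strand, Col3a1 at chr1:45311288-45311587, plus strand and Col5a3 at chr9:20815018-20815317, minus strand. Col15a1 lies at chr4:47207762-47208061, plus strand, and Col27a1 at chr4:63215162-63215461, plus strand.
Col4a1: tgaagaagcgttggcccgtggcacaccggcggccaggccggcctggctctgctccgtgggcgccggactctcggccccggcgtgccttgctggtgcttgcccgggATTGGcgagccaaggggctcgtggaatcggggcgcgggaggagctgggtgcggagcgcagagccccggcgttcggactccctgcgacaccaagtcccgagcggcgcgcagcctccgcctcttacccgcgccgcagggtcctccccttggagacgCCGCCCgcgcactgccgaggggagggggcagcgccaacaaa
Col4a2: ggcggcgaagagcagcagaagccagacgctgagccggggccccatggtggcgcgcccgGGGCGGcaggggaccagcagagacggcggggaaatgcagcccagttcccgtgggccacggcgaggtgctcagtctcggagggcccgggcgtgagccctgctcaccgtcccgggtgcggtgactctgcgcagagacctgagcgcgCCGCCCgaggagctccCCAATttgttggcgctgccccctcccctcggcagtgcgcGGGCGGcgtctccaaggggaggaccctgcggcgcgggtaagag
Col1a2: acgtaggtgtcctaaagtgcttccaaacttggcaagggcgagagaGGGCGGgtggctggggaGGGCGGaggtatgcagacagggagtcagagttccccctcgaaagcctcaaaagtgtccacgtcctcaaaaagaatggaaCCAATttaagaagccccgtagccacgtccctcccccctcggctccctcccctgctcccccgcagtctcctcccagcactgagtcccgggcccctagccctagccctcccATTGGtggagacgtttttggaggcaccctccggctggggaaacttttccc
Col3a1: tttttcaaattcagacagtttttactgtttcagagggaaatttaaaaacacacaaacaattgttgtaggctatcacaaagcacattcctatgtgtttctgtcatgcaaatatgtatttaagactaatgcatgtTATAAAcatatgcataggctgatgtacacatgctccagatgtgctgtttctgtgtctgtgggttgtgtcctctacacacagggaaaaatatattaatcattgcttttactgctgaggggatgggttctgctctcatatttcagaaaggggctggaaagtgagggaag
Col5a3: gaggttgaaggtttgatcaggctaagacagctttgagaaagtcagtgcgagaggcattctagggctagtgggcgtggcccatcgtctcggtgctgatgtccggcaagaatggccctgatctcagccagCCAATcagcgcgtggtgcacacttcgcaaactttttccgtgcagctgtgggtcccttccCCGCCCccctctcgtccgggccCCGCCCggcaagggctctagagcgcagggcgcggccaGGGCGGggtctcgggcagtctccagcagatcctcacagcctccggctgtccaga
Col15a1: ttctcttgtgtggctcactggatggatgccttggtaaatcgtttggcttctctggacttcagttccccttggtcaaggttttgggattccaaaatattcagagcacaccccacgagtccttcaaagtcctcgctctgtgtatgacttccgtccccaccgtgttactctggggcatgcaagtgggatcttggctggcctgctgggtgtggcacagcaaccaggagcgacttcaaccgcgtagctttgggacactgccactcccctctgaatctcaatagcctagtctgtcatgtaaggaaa
Col27a1: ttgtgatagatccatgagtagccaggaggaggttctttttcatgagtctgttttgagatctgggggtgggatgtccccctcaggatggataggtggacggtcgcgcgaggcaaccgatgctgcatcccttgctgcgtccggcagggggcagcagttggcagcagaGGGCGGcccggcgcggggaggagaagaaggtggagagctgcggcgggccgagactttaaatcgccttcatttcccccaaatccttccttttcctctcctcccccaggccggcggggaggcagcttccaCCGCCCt

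Among the 30 chains with a window, 20 held a GC box, 12 a CCAAT box and 4 a TATA box. Over 32851 promoters of the same length the shares were 35.7%, 37.4% and 13.6%. Of the 12 chains that were lower in all 4 depots at day 42 (below), 10 had a window, and among these 6 held a GC box, 3 a CCAAT box and 1 a TATA box. The TATA box was that of Col3a1, and Col15a1 held none of the 3 motifs. A match describes letters in a window and is not evidence of binding.

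Intensities are linear, relative values per probe set. Their scale differs between probe sets and between tissues, so a level is compared only across days for the same gene and tissue. Where a group is summarised by 3 values, these are its lowest, median and highest mouse. Changes are differences from day 0 on the log2 scale, ± the standard error from the limma fit of that tissue, and adjusted p-values cover all genes tested there. A gene was called lower or higher at an adjusted p under 0.05. All days share the same day 0 mice, so the contrasts of a tissue are not independent, and the depots of a mouse come from the same animal.

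The tissue labels were set beside marker genes over all days. Adipoq, the adiponectin gene of fat cells, ranged from 15.5 to 20.3 over the arrays of the 4 depots, and from 0.0384 to 0.339 in liver. Alb, the albumin gene of hepatocytes, ranged from 33.1 to 37.3 in liver and reached at most 4.02 in any depot. Upk3b, a mesothelial gene known from visceral fat, had a median of 4.24 under the subcutaneous label, 2.66 under the mesenteric, 1.66 under the perirenal and 0.0814 under the perigonadal one. This runs against the depot names, so each depot is called by its label only.

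A filter on dim genes, set at percentile 25 of the probe sets' means in a tissue, left 33 chains to test in the labelled subcutaneous depot, 31 in the mesenteric, 33 in the perirenal, 32 in the perigonadal and 33 in liver. Col17a1, Col24a1 and Col26a1 lay below the filter in all 5 tissues, and Col11a1 in all but the labelled subcutaneous depot. The other chains left out were Col11a2, Col22a1 and Col9a2 in the labelled subcutaneous depot, and Col11a2, Col6a4, Col9a1 and Col9a2 in the mesenteric. Col19a1 and Col9a1 were left out in the perirenal, Col19a1, Col4a6 and Col9a1 in the perigonadal, and Col4a3 and Col8a1 in liver. In the labelled subcutaneous depot the filter stood at 0.0616, with Col9a1 just inside at 0.0633 and Col9a2 just outside at 0.0615. In liver it stood at 0.0372, with Col4a6 at 0.0378 and Col4a3 at 0.0348. The values hold no detection calls, so it is not known here which dim chains were above background.

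At day 42 Col1a1 and Col3a1 of the common fibrils, Col4a1 and Col4a2 of the basement membrane and Col6a1, Col6a2 and Col6a3 of the beaded filaments were lower than at day 0 in all 4 depots. The labelled subcutaneous depot had 13 of 33 chains lower, where 2.95% of all genes tested were lower, and 1 higher, where 1.09% were higher. The labelled mesenteric depot had 17 of 31 lower against 17.2% of all genes, and 0 higher against 15%. In the labelled perirenal depot 18 of 33 were lower against 9.39%, and 0 higher against 12.6%. In the labelled perigonadal depot 17 of 32 were lower against 13.6%, and 0 higher against 13.2%. Among the counts of 0 higher, chains at an unadjusted p under 0.05 in the limma fit numbered 0, 1 and 1. The median change over the tested chains was -0.19, -0.19, -0.18 and -0.14 in the depots in that order. In whole tissue, fewer cells of a type that makes a chain and less of its RNA per cell cannot be told apart.

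In liver 5 of 33 chains were lower, where 13.2% of all genes were, and 2 were higher, where 8.08% were, so the share of lower chains was near that of all genes. The median change over its chains was -0.05.

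In 12 chains the fall passed the test in all 4 depots. They were Col1a1, Col3a1, Col5a1, Col5a2 and Col5a3 of the fibrils, Col4a1 and Col4a2 of the basement membrane, Col6a1, Col6a2 and Col6a3 of the beaded filaments, Col8a1 of the short chain network, and Col15a1 of the basement membrane zone. Col1a2, Col12a1, Col16a1 and Col18a1 were lower in 3 depots, Col14a1 in 2, and Col2a1, Col4a3 and Col4a4 in 1. The share of all genes lower in all 4 depots was not counted, and the depots come from the same animals. These numbers of chains therefore have no background beside them. Without the arrays that score high for markers of other tissues, chosen after the values were seen, 3 lower chains of the labelled subcutaneous depot were no longer called, namely Col1a2 (-0.15, adjusted p = 0.205), Col6a1 (-0.20, adjusted p = 0.0588) and Col6a3 (-0.24, adjusted p = 0.0924). In the labelled perirenal depot Col2a1 and Col16a1 lost the call. All 17 lower chains of the mesenteric and the 17 of the perigonadal kept theirs. In the labelled perirenal depot 14 arrays, 3 of them at day 42 and 3 at day 0, had a summed intensity of kidney and adrenal markers over 3 times the median of the depot. Without these arrays, a choice also made after the values were seen, 14 of the 18 chains stayed called, and Col1a2, Col2a1, Col8a1 (adjusted p = 0.248) and Col16a1 did not. With the marker scores as covariates Col8a1 (adjusted p = 0.0567), Col4a3, Col4a4 and Col16a1 lost the call in the labelled perigonadal depot, and no lower chain did in the other depots. By class this was 5 of the 10 fibrillar chains tested in any depot, 2 of 6 basement membrane chains, 3 of 4 beaded filament chains, 1 of 2 multiplexins, 1 of 2 short chain collagens and 0 of 8 fibril associated chains. The 3 membrane-crossing chains tested in a depot and the anchoring fibril chain Col7a1 were lower in none.

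**Figure D1:**
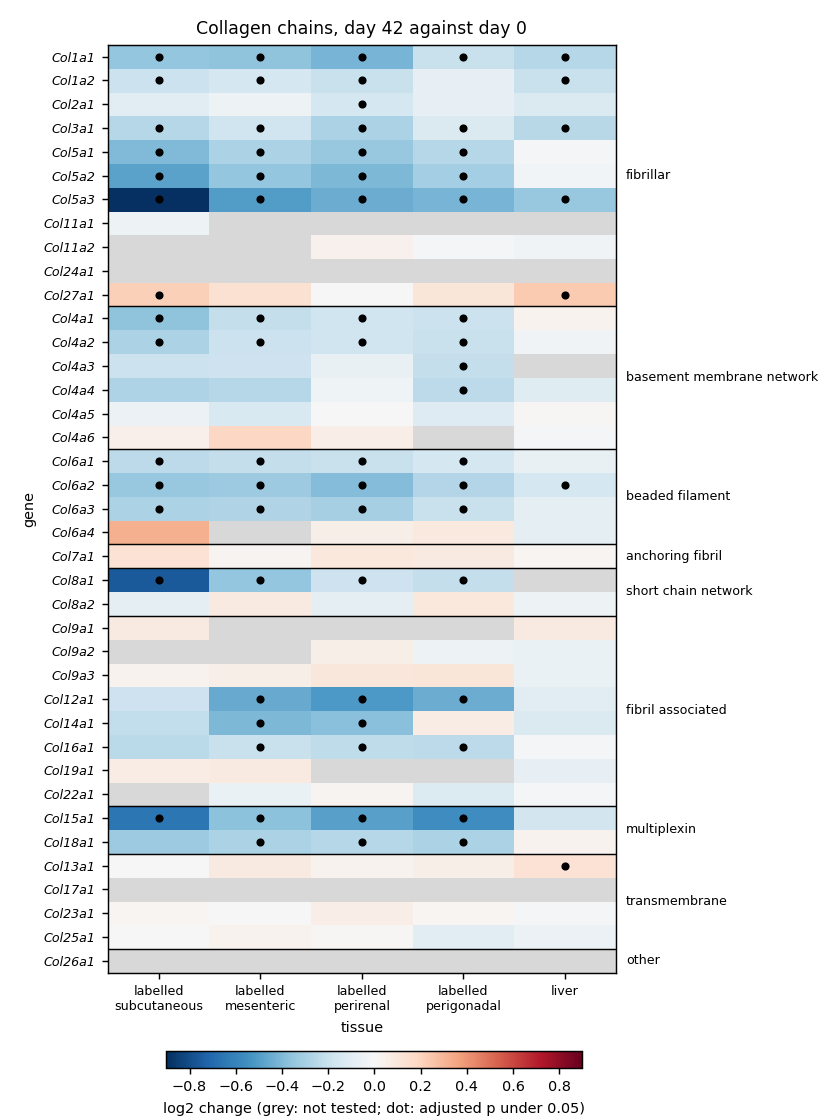
Log2 change at day 42 against day 0 for all 39 collagen chains (rows, grouped by class) in the 4 labelled fat depots and liver (columns), where blue is lower and red higher at day 42, grey cells were not tested and dots mark an adjusted p under 0.05. The 12 chains with dots in all 4 depots fall in the blocks of fibrillar, basement membrane, beaded filament, short chain and multiplexin chains.

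Every chain called at day 42 kept its direction within each letter, with 13, 17, 18 and 17 lower chains in the depots and 5 in liver on the same side in both letters. These chains were picked by a fit over the same J and N mice. Their shared direction was nearly fixed by that choice and tests nothing. Fitted in J mice alone, 0 chains were called at day 42 in the labelled subcutaneous depot, 13 in the mesenteric, 13 in the perirenal, 11 in the perigonadal and 1 in liver. In N mice alone the counts were 5, 17, 1, 15 and 6. Fewer mice enter these fits, and the share of all genes called in each is not given here. The counts are therefore not read as a result about the chains. The difference between the letters in the day 42 effect was called for 0 chains in each of the 5 tissues, and for 0% of all genes. At an unadjusted p under 0.05 the limma fit had 7 chains with a stronger fall in N mice in the labelled perigonadal depot, 1 in liver and 0 in the other depots. The share of all genes at that threshold is not given here, so these counts too are not read as a result about the chains.

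Col1a1 and Col1a2 encode the chains of type I collagen, the main fibril of most connective tissue. Col1a1 had 4.23, 6.31 and 7.63 at day 42, against 6.24, 8.24 and 8.86 at day 0 in the labelled subcutaneous depot. In the labelled mesenteric depot it had 5.84, 8.41 and 9.89 at day 42, against 9.7, 10.5 and 11.1 at day 0. The labelled perirenal depot had 4.11, 8.47 and 9.84 at day 42, against 8.97, 10.3 and 11.7 at day 0. All mice at day 42 in these 3 depots lay below the day 0 mean of their own letter, and the extremes of the groups overlapped. The labelled perigonadal depot had 8.54, 11.6 and 12.1 at day 42, against 11.9, 13.1 and 13.4 at day 0, with 10 of 10 mice below the day 0 mean. Liver had 0.28, 0.385 and 0.424 at day 42, against 0.288, 0.45 and 0.598 at day 0, and there 11 of 12 mice lay below it. The groups overlapped in both tissues.

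The changes of Col1a1 were -0.35 ± 0.07 (adjusted p = 0.000824) in the labelled subcutaneous depot, -0.36 ± 0.05 (adjusted p = 5e-08) in the mesenteric and -0.42 ± 0.09 (adjusted p = 0.000501) in the perirenal. They were -0.20 ± 0.04 (adjusted p = 0.000262) in the perigonadal depot and -0.26 ± 0.08 (adjusted p = 0.0182) in liver. Col1a1 was thus lower in all 5 tissues. The call in liver was lost with marker scores of muscle, red cells and fat cells as covariates, where the change was -0.11. Red cell and fat cell markers were themselves lower in liver at day 42 (below), so a fit with these scores can take up part of a day effect. Why calls in liver were lost with them was not tested.

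Col1a2 had 6.78, 9.16 and 9.81 at day 42, against 8.78, 10.5 and 11.4 at day 0 in the labelled subcutaneous depot, a change of -0.19 ± 0.06 (adjusted p = 0.0311). It had 9.78, 12.2 and 12.9 at day 42, against 12.5, 13.3 and 13.8 at day 0 in the labelled mesenteric depot, a change of -0.16 ± 0.03 (adjusted p = 3.13e-05). It had 6.38, 11 and 12.3 at day 42, against 10.7, 11.7 and 12.8 at day 0 in the labelled perirenal depot, a change of -0.20 ± 0.06 (adjusted p = 0.0153). In these depots 11 of 11, 11 of 11 and 10 of 12 mice lay below the day 0 mean, with overlapping groups. The labelled perigonadal depot had 11, 13.6 and 14.2 at day 42, against 12.9, 14.3 and 14.8 at day 0, and its change of -0.07 ± 0.03 (adjusted p = 0.0642) was not called. Liver had 0.513, 0.669 and 0.717 at day 42, against 0.601, 0.739 and 0.923 at day 0, a change of -0.20 ± 0.06 (adjusted p = 0.011) that was -0.11 and not called with the marker scores. A second, dimmer probe set of Col1a2 changed more in every depot, by -0.38, -0.38, -0.47 and -0.27 in the labelled subcutaneous, mesenteric, perirenal and perigonadal depots.

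Col3a1 encodes type III collagen, which joins type I in the fibrils of stretchable tissue. The labelled subcutaneous depot had 8.45, 11.2 and 12.6 at day 42, against 10.7, 13.4 and 13.6 at day 0, a change of -0.26 ± 0.05 (adjusted p = 0.00106). Values in the labelled mesenteric depot were 10.5, 13 and 15.5 at day 42, against 14.2, 14.6 and 15.2 at day 0, a change of -0.18 ± 0.03 (adjusted p = 4.3e-06). Those in the labelled perirenal depot were 6.68, 14 and 15.3 at day 42, against 14.2, 15.3 and 15.8 at day 0, a change of -0.28 ± 0.07 (adjusted p = 0.00182). The perirenal group at day 42 held a low tail, with mouse J4 at its lowest value. The perirenal array of J4 summed to 24.6 over the kidney and adrenal markers and that of N70 to 24.5, where the median of day 42 was 3.17, and day 0 ran from 2.77 to 22.5. Without the 14 perirenal arrays of high kidney and adrenal sum the change of Col3a1 was -0.13 (adjusted p = 0.00601), less than the value above by over 1.5 times. Those of Col1a1 and Col1a2 were likewise smaller, at -0.26 (adjusted p = 0.0022) and -0.09 (adjusted p = 0.159), and so were those of Col5a2 at -0.25 (adjusted p = 0.0147) and Col6a3 at -0.19 (adjusted p = 0.0383). In the labelled perigonadal depot Col3a1 had 12.3, 14.8 and 15.8 at day 42, against 15.1, 15.9 and 16.4 at day 0, a change of -0.13 ± 0.03 (adjusted p = 5.76e-05). In liver it had 0.794, 1.43 and 1.57 at day 42, against 1.44, 1.55 and 1.81 at day 0, a change of -0.25 ± 0.07 (adjusted p = 0.0053) that was -0.12 and not called with the marker scores. Groups overlapped in all 5 tissues, although 12 of 12 mice in liver lay below the day 0 mean. A second probe set of Col3a1 changed by -0.61, -0.61, -0.75 and -0.50 in the 4 depots in the order above, more than 1.5 times the change of the brighter one.

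Type V collagen, made of Col5a1, Col5a2 and Col5a3 chains, sits inside type I fibrils and helps to start them and to set their width. Col5a2 had 2.68, 3.27 and 4.49 at day 42, against 3.48, 4.97 and 5.52 at day 0 in the labelled subcutaneous depot, a change of -0.48 ± 0.09 (adjusted p = 0.000444). It had 4.34, 5.23 and 7.03 at day 42, against 5.67, 6.75 and 7.31 at day 0 in the labelled mesenteric depot, a change of -0.35 ± 0.05 (adjusted p = 5.56e-07). It had 2.87, 5.53 and 6.99 at day 42, against 5.72, 6.38 and 7.62 at day 0 in the labelled perirenal depot, a change of -0.40 ± 0.10 (adjusted p = 0.00137). These groups overlapped, with 11 of 11, 10 of 11 and 11 of 12 mice below the day 0 mean. In the labelled perigonadal depot the values were 5.35, 6.52 and 7.03 at day 42, against 7.54, 8.09 and 8.43 at day 0, a change of -0.31 ± 0.04 (adjusted p = 1.61e-08), and here every mouse at day 42 lay below every mouse at day 0. In liver they were 0.145, 0.165 and 0.189 at day 42, against 0.139, 0.168 and 0.207 at day 0, a change of -0.03 ± 0.06 (adjusted p = 0.818), which was not called.

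Col5a3 had the largest change at day 42 of any chain in the labelled subcutaneous depot, with 1.06, 1.66 and 3.03 at day 42, against 2.39, 3.31 and 3.79 at day 0, a change of -0.91 ± 0.15 (adjusted p = 4.78e-05). The labelled mesenteric depot had 2.41, 3.68 and 4.95 at day 42, against 4.32, 5.21 and 5.47 at day 0, a change of -0.51 ± 0.07 (adjusted p = 1.37e-07), again the largest among its lower chains. In liver Col5a3 had 0.379, 0.512 and 0.57 at day 42, against 0.569, 0.633 and 0.712 at day 0, a change of -0.34 ± 0.05 (adjusted p = 2.07e-07). Of the livers 12 of 12 lay below the day 0 mean and the groups met only at their ends, from 0.569 to 0.57. The changes in the other 2 depots were -0.45 ± 0.09 (adjusted p = 0.000154) in the perirenal and -0.42 ± 0.05 (adjusted p = 3.61e-10) in the perigonadal, where no day 42 mouse reached the lowest day 0 mouse. Col5a1 fell by 0.25 to 0.39 in the 4 depots and was not called in liver, with a change of -0.01 ± 0.04.

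Among the other fibrillar chains, Col27a1, a chain known from cartilage, was higher in the labelled subcutaneous depot, with 2.34, 2.77 and 3.91 at day 42, against 2.01, 2.42 and 2.78 at day 0, a change of 0.21 ± 0.06 (adjusted p = 0.0399), and 10 of 11 mice above the day 0 mean. That call was lost, at a change of 0.21, when arrays with high scores for other tissues were left out. In the other depots its change was 0.14 ± 0.08 (mesenteric), -0.0002 ± 0.15 (perirenal) and 0.11 ± 0.06 (perigonadal), and none was called. Col2a1, the main chain of cartilage fibrils, was called lower in the labelled perirenal depot and in no other tissue at day 42, with a change of -0.16 ± 0.06 (adjusted p = 0.045) and values of 0.0623, 0.0821 and 0.107 at day 42, against 0.0771, 0.0946 and 0.109 at day 0. A dimmer probe set changed by -0.02 ± 0.06 there. The groups overlapped for both genes.

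Col4a1 and Col4a2 encode the chains of the type IV network found in nearly all basement membranes. As shown above, they are read in opposite directions from start sites 21 bases apart. By these start sites their first transcribed bases overlap. Col4a1 had 7.92, 9.22 and 10.9 at day 42, against 10.1, 12.1 and 12.7 at day 0 in the labelled subcutaneous depot, a change of -0.36 ± 0.06 (adjusted p = 0.00015). It had 11, 12.2 and 13.8 at day 42, against 13.1, 14.3 and 14.6 at day 0 in the labelled mesenteric depot, a change of -0.22 ± 0.03 (adjusted p = 8.19e-08). It had 9.9, 12.3 and 13.8 at day 42, against 12.9, 13.5 and 14.5 at day 0 in the labelled perirenal depot, a change of -0.18 ± 0.04 (adjusted p = 0.000312). In these depots 11 of 11, 11 of 11 and 11 of 12 mice lay below the day 0 mean, and the groups overlapped. It had 11.4, 13.2 and 13.6 at day 42, against 14.6, 14.8 and 15.2 at day 0 in the labelled perigonadal depot, a change of -0.20 ± 0.02 (adjusted p = 5.1e-10), with no overlap. In liver it had 0.874, 1 and 1.12 at day 42, against 0.85, 0.961 and 1.14 at day 0, and a change of 0.03 ± 0.05 (adjusted p = 0.707) that was not called. A dimmer second probe set had -0.10 ± 0.04 there, opposite in sign.

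Col4a2 was also lower in all 4 depots. The labelled subcutaneous depot had 7.73, 8.99 and 10.5 at day 42, against 9.35, 11.1 and 11.6 at day 0, a change of -0.29 ± 0.06 (adjusted p = 0.00172). The labelled mesenteric depot had 10.3, 11.5 and 13.1 at day 42, against 12.5, 13.3 and 13.7 at day 0, a change of -0.19 ± 0.03 (adjusted p = 3.22e-07). Below the day 0 mean were 11 of 11 and 11 of 11 mice, and the groups overlapped. The labelled perirenal depot had 9.25, 11.2 and 12.7 at day 42, against 12, 12.3 and 13.3 at day 0, a change of -0.18 ± 0.04 (adjusted p = 0.000347). The labelled perigonadal depot had 10.7, 11.8 and 12.7 at day 42, against 13.2, 13.5 and 13.9 at day 0, a change of -0.20 ± 0.02 (adjusted p = 4.49e-10), and again no overlap. Liver had 0.857, 0.993 and 1.09 at day 42, against 0.873, 1 and 1.19 at day 0, and its change of -0.03 ± 0.05 (adjusted p = 0.721) was not called.

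Col4a3, Col4a4, Col4a5 and Col4a6 form type IV networks in particular basement membranes such as those of the kidney. Col4a3 was lower in the labelled perigonadal depot, at -0.21 ± 0.06 (adjusted p = 0.00518), with values of 0.147, 0.165 and 0.186 at day 42, against 0.172, 0.197 and 0.21 at day 0. Col4a4 was lower there, at -0.23 ± 0.08 (adjusted p = 0.0306), with 0.428, 0.671 and 0.836 at day 42, against 0.646, 0.782 and 0.853 at day 0. Both groups overlapped. In the other 3 depots the changes of these 2 chains ran from -0.28 to -0.04 and were not called at day 42. Col4a5 was called on no single day in any tissue. The F test over the days (below) called it in the labelled mesenteric (adjusted p = 0.0374) and perigonadal (adjusted p = 0.0291) depots.

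Col6a1, Col6a2 and Col6a3 combine into type VI collagen. Col6a1 had 7.89, 8.98 and 10.5 at day 42, against 8.9, 10.9 and 11.7 at day 0 in the labelled subcutaneous depot, a change of -0.23 ± 0.06 (adjusted p = 0.0094). The labelled mesenteric depot had 10.6, 12.8 and 15.1 at day 42, against 13.6, 14.8 and 15.3 at day 0, a change of -0.21 ± 0.03 (adjusted p = 1.05e-06). The labelled perirenal depot had 9.4, 11.5 and 12.6 at day 42, against 12, 12.5 and 13.9 at day 0, a change of -0.20 ± 0.04 (adjusted p = 0.000533). In these depots 11 of 11, 10 of 11 and 12 of 12 mice lay below the day 0 mean and the groups overlapped. Values in the labelled perigonadal depot were 10.4, 11.5 and 11.7 at day 42, against 12.1, 12.6 and 13.2 at day 0, without overlap, a change of -0.16 ± 0.02 (adjusted p = 3.68e-07). In liver they were 0.438, 0.558 and 0.6 at day 42, against 0.472, 0.574 and 0.674 at day 0, and the change of -0.07 ± 0.05 (adjusted p = 0.408) was not called.

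Col6a3, whose chain is cut to release the fragment endotrophin, had 2.38, 2.8 and 3.52 at day 42, against 2.72, 3.59 and 3.9 at day 0 in the labelled subcutaneous depot, a change of -0.28 ± 0.07 (adjusted p = 0.0151). Its values in the labelled mesenteric depot were 3.32, 4.09 and 4.9 at day 42, against 4.18, 4.91 and 5.26 at day 0, a change of -0.27 ± 0.04 (adjusted p = 1.34e-06). Those in the labelled perirenal depot were 2.63, 4.69 and 5.25 at day 42, against 4.61, 5.12 and 5.74 at day 0, a change of -0.30 ± 0.08 (adjusted p = 0.00385). The groups overlapped, with 11 of 11, 11 of 11 and 10 of 12 mice below the day 0 mean. It had 5.04, 5.55 and 5.8 at day 42, against 5.71, 6.2 and 6.76 at day 0 in the labelled perigonadal depot, a change of -0.20 ± 0.03 (adjusted p = 2.64e-06), and in liver 0.206, 0.241 and 0.259 at day 42, against 0.2, 0.257 and 0.289 at day 0, a change of -0.08 ± 0.05 (adjusted p = 0.311) that was not called. Col6a2 was lower in all 5 tissues, at -0.34 ± 0.08, -0.33 ± 0.05, -0.39 ± 0.08 and -0.26 ± 0.03 in the depots in this order and -0.16 ± 0.06 (adjusted p = 0.0318) in liver, where the marker scores left a change of -0.12 that was not called (adjusted p = 0.233). Col6a4, a chain of a separate type VI branch, was called in no tissue.

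Col15a1 and Col18a1 are multiplexins, which lie at the border of basement membranes and the matrix beyond. In the labelled perigonadal depot Col15a1 had 3.6, 4.36 and 5.59 at day 42, against 6.24, 6.62 and 7.01 at day 0, a change of -0.56 ± 0.05 (adjusted p = 1.38e-12). Every one of its 10 mice was below every day 0 mouse. Col15a1 had 2.08, 3.61 and 5.53 at day 42, against 4.35, 5.72 and 6.23 at day 0 in the labelled subcutaneous depot, a change of -0.65 ± 0.11 (adjusted p = 8.77e-05). It had 3.73, 5.67 and 7.16 at day 42, against 6.18, 7.36 and 7.49 at day 0 in the labelled mesenteric depot, a change of -0.37 ± 0.06 (adjusted p = 6.75e-06). The labelled perirenal depot had 1.93, 5.04 and 6.62 at day 42, against 5.74, 6.03 and 6.81 at day 0, a change of -0.49 ± 0.10 (adjusted p = 0.000343), which was -0.28 without the arrays of high kidney and adrenal sum. These 3 depots showed overlap, since single mice at day 42 reached the level of day 0. Liver had 0.0955, 0.12 and 0.142 at day 42, against 0.107, 0.136 and 0.155 at day 0, and the change of -0.17 ± 0.07 (adjusted p = 0.0811) was not called.

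Col18a1, the source of the fragment endostatin, had 2.21, 2.86 and 3.65 at day 42, against 3.18, 3.56 and 3.94 at day 0 in the labelled mesenteric depot, a change of -0.28 ± 0.05 (adjusted p = 5.62e-06). The labelled perirenal depot had 1.89, 2.74 and 3.27 at day 42, against 2.67, 3.05 and 3.65 at day 0, a change of -0.26 ± 0.07 (adjusted p = 0.00368). The labelled perigonadal depot had 2.01, 2.76 and 3.02 at day 42, against 3.09, 3.24 and 3.48 at day 0, a change of -0.28 ± 0.05 (adjusted p = 1.28e-05), and no overlap between the groups. In the labelled subcutaneous depot it had 1.78, 2.26 and 3.02 at day 42, against 1.95, 3.05 and 3.47 at day 0, and the change of -0.33 ± 0.12 (adjusted p = 0.111) was not called although 11 of 11 mice lay below the day 0 mean. Liver had 7.63, 8.01 and 8.51 at day 42, against 7.32, 7.84 and 8.39 at day 0, and its change of 0.03 ± 0.02 (adjusted p = 0.423) was not called. A second probe set had -0.06 ± 0.02 in liver, opposite in sign.

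Col8a1, a short chain collagen of vessel walls, had 0.226, 0.346 and 0.553 at day 42, against 0.294, 0.547 and 0.731 at day 0 in the labelled subcutaneous depot, a change of -0.75 ± 0.18 (adjusted p = 0.005). In the other depots it changed by -0.35 ± 0.06 (adjusted p = 3.92e-06) (mesenteric), -0.19 ± 0.07 (adjusted p = 0.0481) (perirenal) and -0.21 ± 0.08 (adjusted p = 0.0306) (perigonadal). The subcutaneous groups overlapped and 11 of 11 mice lay below the day 0 mean. The dimmer probe set of Col8a1 changed less, by -0.47, -0.16, -0.10 and -0.10 in the 4 depots in the order above. Its partner chain Col8a2 was not called at day 42 in any tissue.

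Among chains that bind the surface of fibrils, Col12a1 had 0.198, 0.368 and 0.556 at day 42, against 0.44, 0.503 and 0.547 at day 0 in the labelled mesenteric depot, a change of -0.45 ± 0.10 (adjusted p = 0.000158). It had 0.2, 0.305 and 0.414 at day 42, against 0.359, 0.441 and 0.492 at day 0 in the labelled perirenal depot, a change of -0.51 ± 0.08 (adjusted p = 7.95e-07), the largest of any chain there. It had 0.186, 0.242 and 0.36 at day 42, against 0.251, 0.334 and 0.392 at day 0 in the labelled perigonadal depot, a change of -0.44 ± 0.09 (adjusted p = 0.000183). The groups overlapped in these depots, with 9 of 11, 12 of 12 and 10 of 10 mice below the day 0 mean. Its change in the labelled subcutaneous depot was -0.19 ± 0.07 (adjusted p = 0.124). A dimmer second probe set of Col12a1 changed far less, by -0.08 ± 0.08 in the mesenteric, -0.07 ± 0.06 in the perirenal and -0.07 ± 0.07 in the perigonadal depot, so the size of its fall rests on 1 probe set. Col14a1 was lower, at -0.40 ± 0.08 (adjusted p = 6.12e-05) in the labelled mesenteric and -0.38 ± 0.09 (adjusted p = 0.00232) in the labelled perirenal depot, and had a change of 0.07 ± 0.13 in the perigonadal. Col16a1 was lower by 0.20 to 0.24 in these 3 depots. The type IX chains, Col19a1 and Col22a1 were called in no depot at day 42.

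For 9 of 32 chains in the labelled perigonadal depot every day 42 array lay below every day 0 array, which held for 1.23% of all genes. These were Col15a1, Col18a1, Col4a1, Col4a2, Col5a1, Col5a2, Col5a3, Col6a1 and Col6a2. In the other 3 depots, given as subcutaneous, mesenteric, perirenal, and in liver this was so for 0 chains, and for 0.0298%, 0.364%, 0.0147% and 0.495% of all genes.

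**Figure D2:**
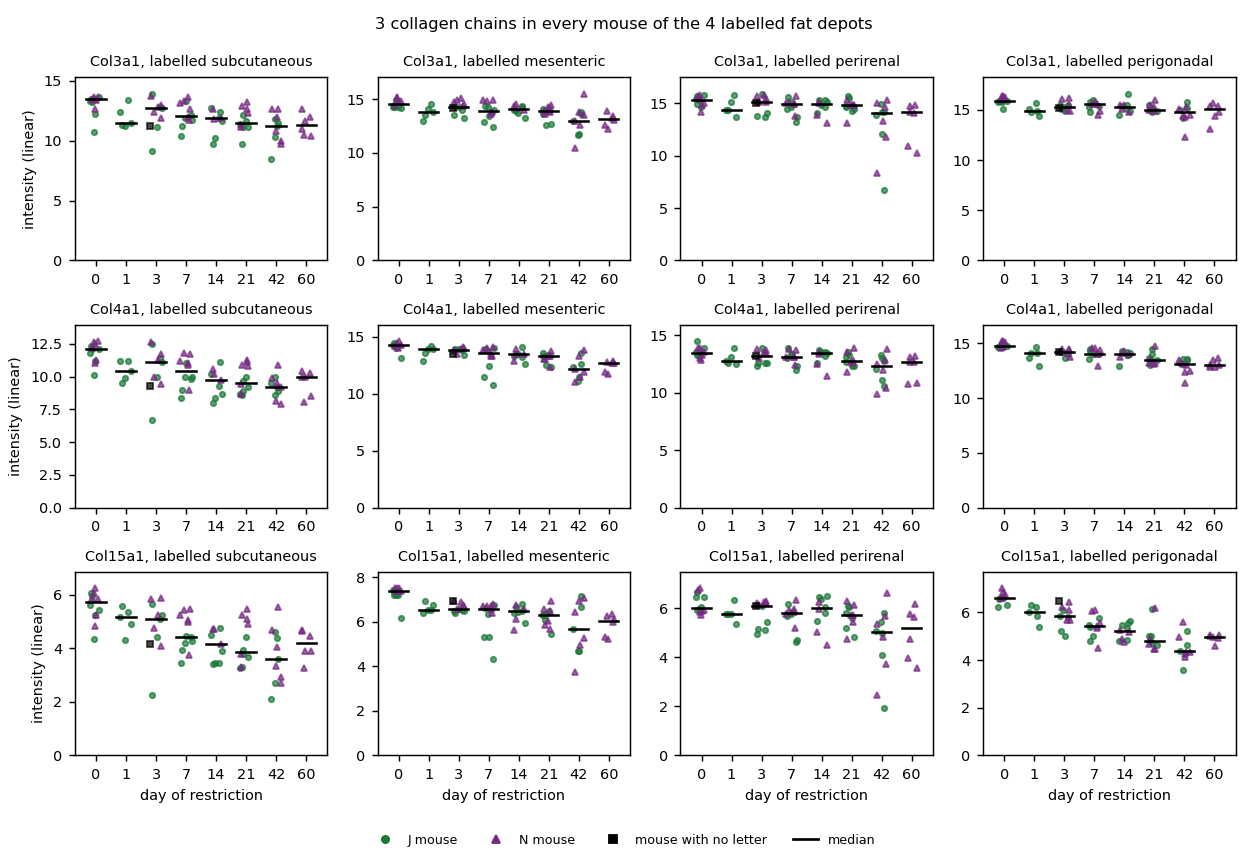
Intensity (linear, y axis from 0) of Col3a1, Col4a1 and Col15a1 (rows) in every mouse of the 4 labelled fat depots (columns) by day of restriction, with J mice as circles, N mice as triangles, the mouse with no letter as a square and the median of a day as a bar; days are evenly spaced. Col15a1 in the labelled perigonadal depot is separated between day 42 (highest 5.59) and day 0 (lowest 6.24), whereas Col3a1 in the labelled perirenal depot has a low tail at day 42 that reaches 6.68.

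The same mouse often stood at the end of the range for many chains. Of the 11 to 13 chains with full values per depot, mouse N70 was the lowest at day 42 for 10 of 12 in the labelled mesenteric and for 10 of 11 in the labelled perigonadal depot. Mouse N10 was the highest for 11 of 13 in the labelled subcutaneous and for 8 of 11 in the labelled perirenal depot. In the perirenal depot J4 was the lowest for 7 of 11, and in the mesenteric N20 was the highest for 7 of 12. The perirenal array of J4 is the one with 24.6 for kidney and adrenal markers. It also had the lowest fibroblast sum of its day, 65.1 beside a median of 88.2. N70 had 74.2 for fibroblast markers and 55.1 for skeletal muscle markers in the same depot, where the median for muscle was 6.7. With scores of muscle, kidney and adrenal and other tissues, but not of fibroblasts, as covariates all 18 chains of the labelled perirenal depot stayed called, and 14 did without J4, N70 and the other arrays of high kidney and adrenal sum. These counts were made after the values were seen.

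The days before and after day 42 were read by the same count. On days 1, 3, 7, 14, 21, 42 and 60 the labelled perigonadal depot had 0, 4, 7, 9, 11, 17 and 16 chains lower, where 0.342%, 0.729%, 5.53%, 6.71%, 10.3%, 13.6% and 11.4% of all genes were lower. The 4 chains of day 3 were Col6a2, Col6a3, Col15a1 and Col5a3. Over the same days Col15a1 changed there by -0.14 ± 0.07, -0.19 ± 0.05, -0.30 ± 0.05, -0.36 ± 0.05, -0.41 ± 0.05, -0.56 ± 0.05 and -0.44 ± 0.06. At day 1, where limma called 0 chains, 11 were lower at an unadjusted p under 0.05. The share of all genes at that unadjusted threshold is not given here, so this count is not read as a result about the chains.

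Over these days the labelled mesenteric depot had 0, 0, 9, 2, 12, 17 and 17 chains lower, where 0.0148%, 0.23%, 3.05%, 2.39%, 8.01%, 17.2% and 14.6% of all genes were lower. The 2 chains of day 14 were Col6a2 and Col6a3, and both were also called at day 7 and day 21. At an unadjusted p under 0.05 limma had 0 chains lower at day 1 and 6 at day 3. A fit with scores of other tissues' markers called 3 chains on day 7 and 5 on day 14. Neither the unadjusted share of all genes nor their share in that fit is given here.

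For the labelled subcutaneous depot the counts were 0, 0, 0, 0, 3, 13 and 14 chains lower, where 0%, 0%, 0%, 0.0669%, 0.141%, 2.95% and 4.31% of all genes were lower. At an unadjusted p under 0.05 limma had 0, 4, 8 and 16 chains lower at days 1, 3, 7 and 14. The shares above are for adjusted p. Shares of all genes at the unadjusted threshold are not given here for either depot of this paragraph. The unadjusted counts are therefore not read as a result about the chains. For the labelled perirenal depot the called counts were 0, 0, 0, 0, 1, 18 and 11, where 0%, 0.0147%, 0.0587%, 0.154%, 1.51%, 9.39% and 8.59% of all genes were lower. Without arrays high in markers of other tissues the last count was 1, and it was also 1 without those of high kidney and adrenal sum. There limma had 2, 1, 1 and 1 chains lower at an unadjusted p under 0.05 on days 1, 3, 7 and 14. In the labelled subcutaneous depot the early counts changed with the fit: marker scores as covariates gave 12 chains called at each of days 7, 14 and 21. The share of all genes called in that fit is not given here, and the shares above belong to the main fit. Whether the depots differed in the day of onset was not tested.

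The median change of the chains lower at day 42 was followed over the days. For the 13 chains of the labelled subcutaneous depot it was -0.10, -0.14, -0.17, -0.29, -0.28, -0.35 and -0.37 on days 1, 3, 7, 14, 21, 42 and 60. For the 18 chains of the labelled perirenal depot it was -0.06, -0.05, -0.08, -0.06, -0.09, -0.29 and -0.25 at the same days. These chains were picked by day 42, so the later values describe them and test nothing.

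**Figure D3:**
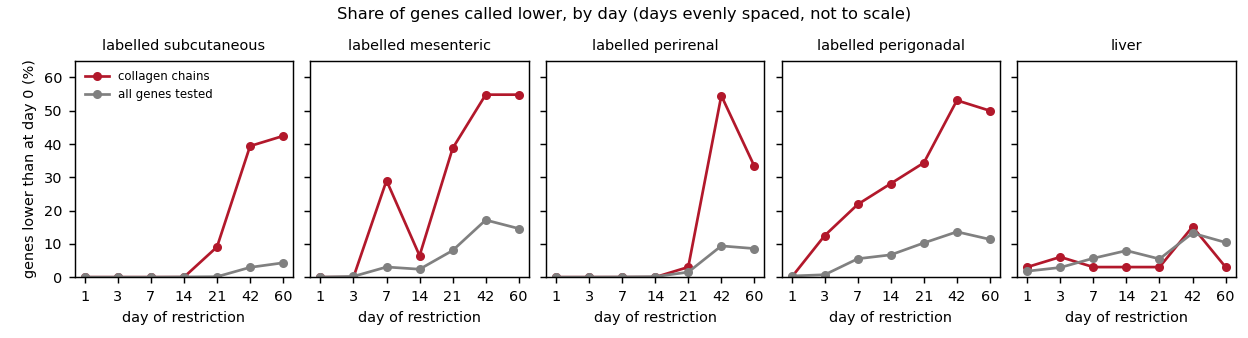
Percentage of tested collagen chains (red) and of all genes tested (grey) called lower than at day 0 (y axis) by day of restriction (x axis, evenly spaced) in the 4 labelled fat depots and liver. The red line lies above the grey one at day 42 in each depot, with 17 of 31 chains against 17.2% of all genes in the labelled mesenteric depot, and near it in liver.

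Between day 42 and day 60 no chain passed the test. The contrast of day 60 with day 42 called 0 chains in every tissue, beside 0.00744% of all genes in the labelled subcutaneous depot, 0% in the mesenteric, perirenal and perigonadal and 0.00739% in liver. At an unadjusted p under 0.05 the limma fit had 2 chains in the labelled subcutaneous depot, 1 in the mesenteric, 0 in the perirenal, 1 in the perigonadal and 0 in liver. The share of all genes at that threshold is not given here. Day 60 held 6 mice, and with array weights the same contrast called 12 chains in the labelled subcutaneous depot. For that fit the share of all genes is not given here.

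A moderated F test over all 7 contrasts with day 0 called 12 of 33 chains in the labelled subcutaneous depot (5.79% of all genes), 21 of 31 in the mesenteric (38.2%), 14 of 33 in the perirenal (24.9%), 20 of 32 in the perigonadal (36.1%) and 7 of 33 in liver (28.5%).

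A few chains were higher on 1 or 2 days in fat. In the labelled mesenteric depot 2 were higher at day 21, where 8.53% of all genes were higher. Col8a2, a partner of Col8a1, had 0.112, 0.194 and 0.424 at day 21, against 0.0928, 0.15 and 0.212 at day 0, a change of 0.68 ± 0.19 (adjusted p = 0.00714), and Col4a6 had 0.267, 0.32 and 0.421 at day 21, against 0.207, 0.274 and 0.34 at day 0, a change of 0.33 ± 0.10 (adjusted p = 0.0118). Both groups overlapped. Col4a6 was also higher at day 60, by 0.32 ± 0.12 (adjusted p = 0.0405), where 11.5% of all genes were higher. In the labelled perigonadal depot Col7a1, the anchoring fibril chain, was higher at day 7 by 0.16 ± 0.05 (adjusted p = 0.0172) (4.01% of all genes higher). Col8a2 was higher there at day 21 by 0.18 ± 0.05 (adjusted p = 0.00337) (9.29%) and at day 60 by 0.17 ± 0.06 (adjusted p = 0.0256) (10.4%). In the labelled subcutaneous depot Col9a3, a cartilage chain, was higher at day 60 by 0.32 ± 0.08 (adjusted p = 0.00809) (5.42%), with 0.142, 0.184 and 0.211 at day 60, against 0.127, 0.151 and 0.186 at day 0.

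The day 42 changes of pairs of depots were then set against each other. Of 29 to 32 chains tested per pair, 0 differed in any of the 6 pairs. Among all genes 2.87% differed between the labelled subcutaneous and mesenteric depots, 0.0307% between subcutaneous and perirenal, 0.644% between subcutaneous and perigonadal, 0.0076% between mesenteric and perirenal, 0.939% between mesenteric and perigonadal and 0% between perirenal and perigonadal. At an unadjusted p under 0.05 limma had 5, 4, 5, 0, 4 and 4 chains in these pairs in the same order. Among all genes, 1150 negative and 1051 positive differences of 13004 passed between subcutaneous and mesenteric, and 864 and 446 of 13043 between subcutaneous and perirenal. These were 701 and 546 of 12891, 462 and 207 of 13154, 1011 and 787 of 12995, and 317 and 529 of 13211 in the other pairs. Between subcutaneous and mesenteric the 5 of 30 chains were near the share of all genes. The smallest adjusted p belonged to Col14a1, whose change in the mesenteric depot minus that in the perigonadal was -0.47 ± 0.15 (adjusted p = 0.0958). The change of Col5a3 in the subcutaneous depot minus that in the perigonadal was -0.49 ± 0.16, which was not called (adjusted p = 0.154). Within animals, with the mouse as the replicate block, Col12a1 differed between the subcutaneous and mesenteric depots (0.30, adjusted p = 0.0455) and no other chain did in any pair.

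In liver Col5a3 was lower on 5 of the 7 days, more than any other chain there. On day 7 it had 0.489, 0.575 and 0.654, on day 14 0.519, 0.566 and 0.63, on day 21 0.48, 0.562 and 0.615, and on day 60 0.389, 0.499 and 0.524, against 0.569, 0.633 and 0.712 on day 0. The changes were -0.15 ± 0.05 (adjusted p = 0.0362), -0.16 ± 0.05 (adjusted p = 0.0292), -0.18 ± 0.05 (adjusted p = 0.01) and -0.43 ± 0.06 (adjusted p = 4.65e-07) at these days. At day 60 all 6 livers, each from an N mouse, lay below every liver at day 0. The share of all genes for which this held at day 60 was not counted. The early calls were less firm. With the marker scores as covariates the changes on days 7, 14 and 21 were -0.14, -0.13 and -0.13 and were not called (adjusted p = 0.0797, 0.0874 and 0.123), and none of these 3 days was called in J mice alone. Day 7 was also lost without the high arrays (adjusted p = 0.0665), and days 7 and 14 under quantile normalization. The calls of days 42 and 60 held with the marker scores. It was the 1 chain lower on each of days 7, 14, 21 and 60, where 5.68%, 7.98%, 5.47% and 10.4% of all genes were lower.

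Col4a1 and Col4a2 were lower in liver early, and no other type IV chain was called there at day 1 or day 3. Col4a2 had 0.734, 0.816 and 0.958 at day 1, against 0.873, 1 and 1.19 at day 0, a change of -0.24 ± 0.06 (adjusted p = 0.0231), and was the 1 chain lower at day 1, where 1.8% of all genes were. Next, Col4a2 had 0.783, 0.848 and 1.01 at day 3, against 0.873, 1 and 1.19 at day 0, a change of -0.18 ± 0.05 (adjusted p = 0.0206). Col4a1 had 0.785, 0.847 and 1.03 at day 3, against 0.85, 0.961 and 1.14 at day 0, a change of -0.18 ± 0.05 (adjusted p = 0.0226), which made 2 chains lower at day 3 against 2.9% of all genes. Both groups overlapped with day 0 at both days. The call of day 1 rests on 5 J mice and was lost without J15, J20 or J60. Both days had a count of 0 once the marker scores were in the limma fit.

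Col27a1 rose in liver, with 6.79, 8.55 and 9.52 at day 42, against 4.93, 7.04 and 8.31 at day 0, a change of 0.23 ± 0.06 (adjusted p = 0.00356) and 10 of 12 mice above the day 0 mean. It was also higher at day 14, by 0.26 ± 0.07 (adjusted p = 0.00399), where 4.23% of all genes were higher, and at day 60, by 0.28 ± 0.08 (adjusted p = 0.00518), where 9.6% were. Its 3 probe sets changed by 0.23, 0.35 and 0.29 at day 42. Col13a1, a membrane-crossing chain found at cell contacts, had 0.214, 0.239 and 0.274 at day 42, against 0.192, 0.224 and 0.247 at day 0, a change of 0.13 ± 0.04 (adjusted p = 0.0222) that lost its call with the marker scores at a change of 0.13. At day 60 it was higher by 0.17 ± 0.05 (adjusted p = 0.0158). The groups of day 42 and day 0 overlapped for both genes.

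**Figure D4:**
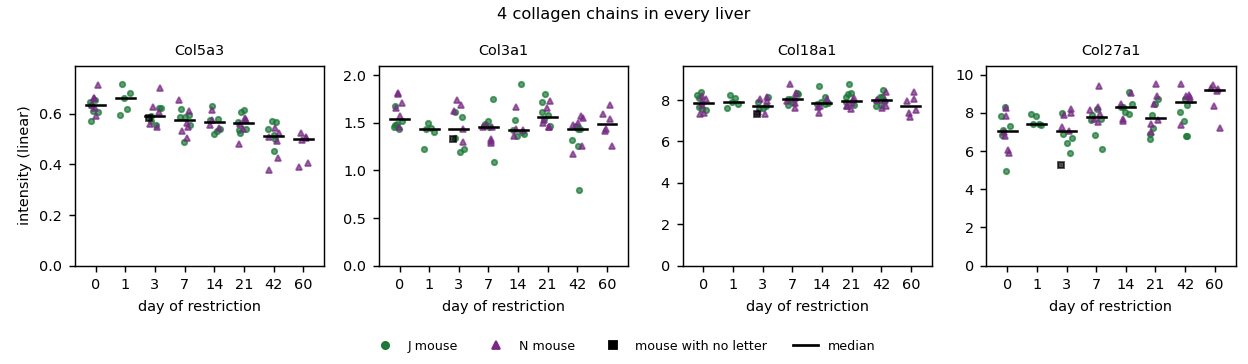
Intensity (linear, y axis from 0) of Col5a3, Col3a1, Col18a1 and Col27a1 in every liver by day of restriction (evenly spaced), with J mice as circles, N mice as triangles, the mouse with no letter as a square and the median of a day as a bar. Col5a3 has a median of 0.512 at day 42 and 0.633 at day 0, Col27a1 a median of 8.55 at day 42 and 7.04 at day 0, and Col18a1 has medians of 8.01 at day 42 and 7.84 at day 0.

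Genes that help collagen to be made were read beside the chains at day 42. These lists, like the members, were drawn up with earlier results of these data known. Their counts stand beside the shares of all genes at day 42, which were 2.95% lower and 1.09% higher in the labelled subcutaneous depot, 17.2% and 15% in the mesenteric, 9.39% and 12.6% in the perirenal, 13.6% and 13.2% in the perigonadal, and 13.2% and 8.08% in liver. Of the list of procollagen processing and crosslinking, 4 of 9 tested genes were lower in the labelled subcutaneous depot, 7 of 9 in the mesenteric, 5 of 9 in the perirenal, 4 of 9 in the perigonadal and 1 of 8 in liver, and 0 were higher in any. All 9 had negative changes in each depot. Lox, the lysyl oxidase that starts the crosslinks between collagen molecules, changed by -0.48 ± 0.14 (adjusted p = 0.0344), -0.47 ± 0.08 (adjusted p = 3.94e-06), -0.34 ± 0.11 (adjusted p = 0.0182) and -0.17 ± 0.06 (adjusted p = 0.0334) in the depots in this order. It lay below the filter in liver. Its relative Loxl2 changed by -0.37 ± 0.10, -0.37 ± 0.07, -0.41 ± 0.09 and -0.28 ± 0.06, called in all 4.

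Adamts2, which cuts the leading end off procollagens, was lower in the labelled subcutaneous depot (-0.38 ± 0.09), in the perigonadal (-0.19 ± 0.03) and in liver (-0.16 ± 0.06). Bmp1, which cuts the trailing end, was lower in the labelled mesenteric depot (-0.25 ± 0.05). Pcolce2, an enhancer of that cut, was lower in the mesenteric (-0.47 ± 0.10), perirenal (-0.53 ± 0.12) and perigonadal (-0.40 ± 0.09) depots. Loxl4 was lower in the subcutaneous depot (-0.21 ± 0.07) and Loxl1 in the perirenal (-0.17 ± 0.06).

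Among genes of folding and modification, 1 of 18 was lower and 0 higher in the labelled subcutaneous depot, 7 and 1 of 17 in the mesenteric, 6 and 1 of 17 in the perirenal, 6 and 2 of 18 in the perigonadal, and 0 and 2 of 18 in liver. Sparc, a matrix protein that binds collagen, changed by -0.14 ± 0.02, -0.16 ± 0.03, -0.16 ± 0.02 and -0.14 ± 0.02 in the depots, called in each, and by -0.01 ± 0.04 (adjusted p = 0.864) in liver. Serpinh1, the collagen chaperone also known as Hsp47, changed by -0.13 ± 0.10 (adjusted p = 0.581) in the subcutaneous depot, which was not called, and by -0.19 ± 0.04 (adjusted p = 0.000253), -0.21 ± 0.05 (adjusted p = 0.000395) and -0.12 ± 0.04 (adjusted p = 0.0183) in the others. In liver its change was 0.15 ± 0.06 (adjusted p = 0.0914). P4ha1, the catalytic chain of the prolyl hydroxylase that steadies the helix, was called in no tissue, with changes from -0.07 to 0.10.

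P3h1, a prolyl hydroxylase of the same pathway, was lower in the labelled mesenteric (-0.37 ± 0.06) and perirenal (-0.29 ± 0.06) depots. Plod1, a lysyl hydroxylase, was lower in the perirenal (-0.17 ± 0.05) and perigonadal (-0.21 ± 0.03) depots, and Plod3, another, in the mesenteric (-0.23 ± 0.05) and perigonadal (-0.20 ± 0.03). Colgalt1, which adds sugar to hydroxylysine, was lower in the mesenteric depot (-0.20 ± 0.03). P3h4, a partner of lysyl hydroxylation, went the other way in the perigonadal depot at 0.22 ± 0.04. In liver Fkbp14, a folding enzyme, and P4ha2 were higher, by 0.19 ± 0.04 and 0.20 ± 0.06.

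**Figure D5:**
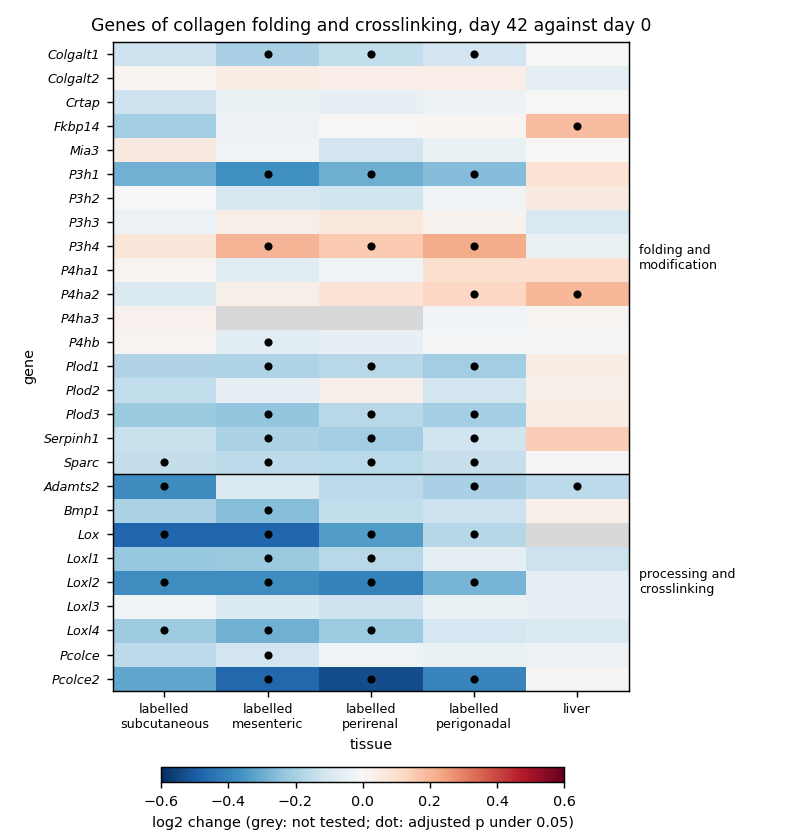
Log2 change at day 42 against day 0 for the tested genes of collagen folding and modification (upper block) and of procollagen processing and crosslinking (lower block) in the 4 labelled fat depots and liver, where blue is lower and red higher at day 42, grey was not tested and dots mark an adjusted p under 0.05. Lox, Loxl2 and Sparc carry dots in all 4 depots, and P4ha1 carries none.

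The lists of collagen receptors, collagen breakdown and transforming growth factor beta signalling had calls in both directions. Among receptors, 0 of 8 were called in the labelled subcutaneous depot (2 lower at an unadjusted p under 0.05 in the limma fit), 2 lower and 1 higher of 7 in the mesenteric, 2 and 1 of 7 in the perirenal, 2 and 1 of 8 in the perigonadal, and 0 of 7 in liver (0 unadjusted). Itgb1, the shared chain of the collagen-binding integrins, changed by -0.21 ± 0.04, -0.17 ± 0.04 and -0.21 ± 0.03 in the mesenteric, perirenal and perigonadal depots. Mrc2, an uptake receptor for collagen, changed by -0.33 ± 0.07, -0.38 ± 0.12 and -0.34 ± 0.07 there. Ddr2 was higher in the mesenteric depot (0.14 ± 0.04), and Itga10 in the perirenal (0.19 ± 0.07) and perigonadal (0.20 ± 0.05).

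Of 7 genes of collagen breakdown tested in each depot, 1 was lower and 0 higher in the labelled subcutaneous, 4 and 2 in the mesenteric, 1 and 0 in the perirenal and 2 and 3 in the perigonadal, and of 6 in liver 1 and 1. Beside 9.39% of all genes lower in the perirenal and 13.6% in the perigonadal depot, 1 and 2 lower genes of 7 are too few to read as a result about the list. Mmp14, a collagenase of the cell surface, was higher in the mesenteric depot (0.23 ± 0.05), the perigonadal (0.14 ± 0.05) and liver (0.20 ± 0.04). Mmp9, a gelatinase, was higher in the mesenteric (0.40 ± 0.12) and perigonadal (0.52 ± 0.12) depots. Ctsl, a lysosomal protease, was lower in the mesenteric (-0.06 ± 0.02), perirenal (-0.13 ± 0.03) and perigonadal (-0.12 ± 0.03), and Fap, a protease of activated fibroblasts, in the subcutaneous (-0.28 ± 0.07) and perigonadal (-0.16 ± 0.04) depots, and it was called in the mesenteric too. Pepd, which frees proline from collagen fragments, was lower in the mesenteric depot (-0.13 ± 0.04) and liver (-0.11 ± 0.03).

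In the growth factor pathway 0 of 15 genes were called in the labelled subcutaneous depot (3 at an unadjusted p under 0.05 in the limma fit), 3 were lower and 3 higher of 15 in the mesenteric, 1 and 4 in the perirenal, 2 and 7 in the perigonadal, and 2 and 1 in liver. Tgfb1, the ligand gene, was lower in the labelled mesenteric depot, at -0.22 ± 0.04 (adjusted p = 1.59e-05). Ltbp3, a protein that stores the ligand in the matrix, was lower in the mesenteric (-0.16 ± 0.05), perirenal (-0.15 ± 0.05) and perigonadal (-0.21 ± 0.04). Tgfbr3, a co-receptor, was higher in the same depots, by 0.15 ± 0.05, 0.14 ± 0.03 and 0.13 ± 0.03. Ccn2, a target gene of the pathway also known as connective tissue growth factor, was lower in the perigonadal depot (-0.31 ± 0.08), and Tgfbi, another, was higher there (0.16 ± 0.03) and lower in liver (-0.10 ± 0.04).

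Markers of the cells that make collagen were read as summed intensities. All 15 fibroblast markers were above the filter in each depot. In the labelled subcutaneous depot 2 were lower and 0 higher, with a sum of 83.4, 91.1 and 95.3 at day 42, against 85.5, 95.2 and 98 at day 0. In the mesenteric 4 were lower and 4 higher, with 81.6, 89.6 and 95.9 at day 42, against 81.9, 89.8 and 94.8 at day 0. In the perirenal 4 were lower and 1 higher, with 65.1, 88.2 and 97.3 at day 42, against 83.4, 90.1 and 95.1 at day 0. The sums of the groups overlapped in every depot. In the perigonadal depot 3 were lower and 3 higher, with 87.6, 97.9 and 108 at day 42, against 87.2, 99.3 and 102 at day 0. Pdgfra, a general marker of these cells, was higher by 0.24 ± 0.04, 0.18 ± 0.04 and 0.23 ± 0.05 in the mesenteric, perirenal and perigonadal depots. Fbn1, a microfibril gene, was lower, at -0.45 ± 0.09, -0.40 ± 0.06 and -0.41 ± 0.09 in the subcutaneous, mesenteric and perirenal, and Lum, a proteoglycan that binds fibrils, at -0.23 ± 0.07 and -0.23 ± 0.07 in the perirenal and perigonadal. Whether the number of fibroblasts moved with the chains was not tested.

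Markers of other cell types were read in the same way. In the labelled perigonadal depot 5 of 10 endothelial markers were lower and 1 higher, with a sum of 28.9, 31.2 and 33.4 at day 42, against 31.3, 32.7 and 34.3 at day 0, and Cdh5, the cadherin of endothelial junctions, changed by -0.25 ± 0.04. Among all genes of that depot 13.6% were lower and 13.2% higher. Skeletal muscle markers there summed to 9.35, 70.1 and 109 at day 42, against 9.8, 12 and 94.4 at day 0, and 0 of 10 were called in the limma fit, with 4 higher at an unadjusted p under 0.05. In the labelled mesenteric depot 6 of 11 macrophage markers were lower (17.2% of all genes), with a sum of 46.2, 55.1 and 59.9 at day 42, against 50.6, 58 and 62.1 at day 0. Elsewhere the median endothelial sum at day 42 was 22.2 against 22.4 at day 0 (subcutaneous), 27.4 against 25.9 (mesenteric) and 25.3 against 25.4 (perirenal). The median macrophage sum was 36.9 against 38 (subcutaneous), 53.3 against 55 (perirenal) and 38.3 against 36.8 (perigonadal). The part of these markers in the fall of the chains was not tested marker by marker. With scores of muscle, mesothelium, B cells, epididymis, gut and pancreas, and kidney and adrenal as covariates, 16, 17, 18 and 14 chains were called at day 42 in the depots in the order above. The share of all genes called with these scores is not given here.

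In liver 4 of 11 fat cell markers were lower at day 42, with a sum of 22, 23.5 and 25.5 at day 42, against 24.3, 25.2 and 26.6 at day 0, and both tested red cell markers were lower, with 1.39, 3.46 and 3.97 at day 42, against 3.66, 4.01 and 4.24 at day 0. None of 8 stellate cell markers was called, where 1 was lower at an unadjusted p under 0.05 in the limma fit, and their sum was 5.35, 6.04 and 6.26 at day 42, against 5.37, 5.94 and 6.29 at day 0. With scores of muscle, red cells and fat cells as covariates, 2 chains were called in liver at day 42, 1 lower and 1 higher, in place of 7. As the fat cell and red cell sums were lower at day 42, their scores can take up part of the day 42 effect. Adipoq had a median of 0.0461 in liver over all days, so the fat cell sum there came almost wholly from other genes of the list.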

How the data were processed

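Total RNA of each tissue was measured on Affymetrix arrays. The authors deposited a linear intensity for every probe set. Its background correction, summarisation and normalization are not given in the sources used here. Array means ran from 0.962 to 0.999. Arrays have no read depth, so the number of mice limits the precision. Of 466 arrays, 392 from the 4 labelled fat depots and liver were used, and the others were not analysed here. The probe-to-gene table named 25508 of 32640 probe sets with 1 gene.

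Log2 of the deposited intensity, with no offset, was fitted per tissue with limma 3.58.1 (R 4.3.3, trend and robust), with day and letter as terms. Genes under percentile 25 were left out, p-values were adjusted by Benjamini-Hochberg over all genes of the tissue, and 0.05 was the threshold. The procedure was tested on simulated data. Chains named with full values were 10 common chains and those with the largest change per tissue. Of each gene list up to 4 called members with the smallest adjusted p were named, with Serpinh1, P4ha1, Lox and Sparc in any case. The members and lists were chosen with earlier results of these data known. Replicates are separate animals. Depots of the same animal carry the same ID, and residuals correlated at a median r of 0.0566 to 0.16 within animals, against -0.00587 to 0.0127 between animals. Promoter sequences are from RefSeq, GRCm38.p6. The alternatives are described in the closing section.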

Additional observations from a re-analysis of the deposited data

Results flagged for a closer look

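Of 71 groups of 4 to 10 mice, 7 held a mouse far from the others by Dixon's ratio, where chance gives about 1 in 20. A group is 1 named chain in 1 tissue on 1 day, here day 60 in each tissue and day 42 in the labelled perigonadal depot. Groups of day 0, and of day 42 in the other depots and liver, held 11 or 12 mice and were not looked at. The low perirenal values of mouse J4 at day 42 were thus outside this search. Mouse N70 was the low one of 10 at day 42 in the labelled perigonadal depot for 4 chains. Col1a1 was 8.54 there, with the next mouse at 10.4 and the other end at 12.1. Col1a2 was 11, with the next at 12.5 and the other end at 14.2. Col3a1 was 12.3, with 14.2 and 15.8, and Col4a1 was 11.4, with 12.4 and 13.6. These 4 values come from 1 array. At day 60 in the same depot mouse N43 had 9.39 for Col1a1, with the next at 11.3 and the other end at 12.3. Mouse N14 had 4.59 for Col15a1, with 4.91 and 5.07. In the labelled perirenal depot at day 60 mouse N14 had 0.233 for Col12a1, with 0.299 and 0.332.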

How the results depend on the processing

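Counts of called chains that moved by over 1.5 times from those above are given here, and the cause was not tested. The share of all genes under each setting is not given. These counts therefore show only how the calls of chains depend on the fit. Without a letter term the labelled subcutaneous depot had 1, 0 and 8 on days 14, 21 and 60, the perigonadal 1 at day 1 and liver 2 at day 1. Quantile normalization gave 1 at day 14 in the subcutaneous depot and 0 at day 7 and 1 at day 14 in liver. Array weights gave 2, 8, 12 and 25 at days 7, 14, 21 and 60 and 12 between day 60 and day 42 in the subcutaneous depot, 1, 8 and 11 at days 1, 3 and 14 in the mesenteric, 1 and 5 at days 14 and 21 in the perirenal, 5 and 13 at days 1 and 7 in the perigonadal, and 6, 3 and 5 at days 3, 7 and 60 in liver. Marker scores as covariates gave 12 on each of days 7, 14 and 21 in the subcutaneous depot, 3 and 5 at days 7 and 14 in the mesenteric, 1 and 17 at days 7 and 60 in the perirenal, 2, 5 and 8 at days 3, 7 and 60 in the perigonadal, and 0, 0, 0, 1, 0 and 2 at days 1, 3, 7, 14, 21 and 42 in liver.

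In J mice alone, where fewer mice enter, the subcutaneous depot had 0 at days 21 and 42, the mesenteric 0 at days 7, 14 and 21, the perirenal 0 at day 21, the perigonadal 1, 3, 4 and 11 at days 3, 7, 14 and 42, and liver 0 at days 1, 3, 7, 14 and 21 and 1 at day 42. In N mice alone the subcutaneous depot had 0 and 5 at days 21 and 42, the mesenteric 0 at days 7 and 14, the perirenal 0, 1 and 2 at days 21, 42 and 60, the perigonadal 0 and 5 at days 3 and 14, and liver 0 at days 3, 14 and 21 and 5 at day 60. Leaving out arrays high in markers of other tissues, chosen after seeing the data, gave 0 and 9 at days 21 and 60 in the subcutaneous depot, 3 and 1 at days 7 and 14 in the mesenteric, 1 at day 60 in the perirenal (1 also without the perirenal arrays of high kidney and adrenal sum, likewise added later), 1 at day 3 in the perigonadal, and 0 and 2 at days 7 and 21 in liver. The mean over probe sets gave 0 at day 21 in the perirenal depot and 2 at day 21 in liver, and no filter gave 2 at day 3 in the perigonadal. Leaving out 1 day 1 mouse at a time gave 0 to 2 in liver (0 without J15, J20 or J60, 2 without J7 or J80) and 0 to 3 in the perigonadal depot (3 without J80). With the replicate block, 1 chain differed between the subcutaneous and mesenteric depots, and it changed no other depot pair.

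Of the named day 42 changes under these settings, 604 kept direction and side of the threshold, 55 lost the call, 6 gained one and 5 changed sign. The 5 were in liver and not called: Col4a1 (-0.0354) and Col18a1 (-0.0177) as means over probe sets, Col4a2 (0.0467) and Col5a2 (0.0095) with marker scores, and Col4a1 (-0.0347) in N mice alone.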
